A study of Mus musculus with 8 samples.

Results

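The vacuolar H+-ATPase (V-ATPase) genes described here are 10 of its subunits, chosen by name as 5 intercalated-type subunits (Atp6v1b1, Atp6v0d2, Atp6v1g3, Atp6v0a4 and Atp6v1c2) and 5 ubiquitous ones (Atp6v1a, Atp6v1b2, Atp6v0d1, Atp6v0a1 and Atp6v1g1). They are 10 of the 18217 genes that could be named on the arrays, and all 10 were tested. Total RNA of the kidneys of 8 mice, each 8 weeks old and each on 1 single-colour (Cy3) Agilent array, was compared between 4 NEKO mice and 4 controls. NEKO mice carry the genotype Keap1-/-::Nrf2Flox/Flox::K5-Cre, so that Keap1, the repressor of the transcription factor Nrf2, is absent from every tissue, and Nrf2 is deleted only where the Keratin5 promoter drives Cre, which is in squamous epithelium. The controls were littermates with 1 intact Keap1 allele, which were K1Cre (Keap1+/-::Nrf2Flox/Flox::K5-Cre) in control replicates 4, 7 and 8 and K1 (Keap1+/-::Nrf2Flox/Flox), with no Cre, in control replicate 1. Every mouse had floxed Nrf2 on both alleles and a mixed background from 129Sv/J and C57BL/6J. NEKO replicates 2 and 3 and control replicates 1 and 8 were females, and NEKO replicates 5 and 6 and control replicates 4 and 7 were males. Since all females shared a slide and all males shared another, an effect of sex and one of the slide cannot be told apart, and 2 mice of each group were on either slide.

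The V-ATPase is a rotary proton pump made of a cytosolic V1 part, which splits ATP, and a membrane V0 part, which carries the protons. Every cell uses it to acidify lysosomes, endosomes and the Golgi. Intercalated cells of the collecting duct also place it in their plasma membrane, where it secretes acid into the urine or into the blood side, and they build it with isoforms of several subunits that few other cells make. Inherited loss of the B1 or the a4 isoform in people causes distal renal tubular acidosis.

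Levels are given as log2 of the processed signal less the 75th percentile of that array, so that 0 means as bright as that percentile and a difference of 1 means a doubling. A level can be set against the same probe on another array but not against another probe. A gene was called where the adjusted p was under 0.05 in limma, in a model that included sex, after Benjamini-Hochberg adjustment across the 19593 named genes and unnamed transcripts tested. The share of probes well above background ran from 61.7% to 65.7% over the arrays, no spot was saturated, and the 10 subunits were above it on all 8 arrays. As a check of the labels, Keap1 itself lay between 1.77 and 1.92 in the controls and between 0.06 and 0.45 in the NEKO mice, a log2 difference of -1.63 (SE 0.10, adjusted p = 0.0046 from limma). Where its probe lies relative to the deleted part is not given in the sources used here. The proximal tubule markers, which define most of the kidney cortex, were well above background on all 8 arrays in 7 of 7 genes. In whole kidney RNA, fewer cells of a type and less RNA per cell cannot be told apart.

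Promoters of 7 of the 10 subunits were in the RefSeq table (build GRCm38.p6), and Atp6v0d2, Atp6v1b2 and Atp6v1g1 were not. The windows of 300 bases, 250 before the start site and 50 after it, were searched on both strands for 3 motifs. These were the forkhead core TGTTTAC, a class of site that Foxi1, the forkhead factor of intercalated cells, can bind, the lysosomal-gene E-box TCACGTG, and the antioxidant response element core TGACNNNGC through which Nrf2 acts. They were present in 3.65%, 3.77% and 12.4% of the 32851 promoters of the table. Among the intercalated-type subunits, Atp6v1b1 held 1 forkhead core, 98 bases before its start site, and Atp6v1g3, Atp6v0a4 and Atp6v1c2 held none of the 3 motifs in this window. Among the ubiquitous subunits, Atp6v1a held the E-box 132 bases before the start and the response element core 45 bases before it, and in Atp6v0d1 the E-box spanned the start site. Both E-boxes are palindromes (TCACGTGA) that match on both strands, and each was counted as 1 site. Atp6v0a1 held the response element core on the minus strand at 220 and 211 bases before its start, in a repeat. A match is a description of the letters and not of binding. Shown here are 260 bases (250 before the start site and 10 after it) of 2 intercalated-type subunits that were lower in the NEKO mice and of 2 ubiquitous ones near the control level, with the motifs in capitals. Atp6v1b1 lies at chr6:83742767-83743026 on the plus strand, Atp6v1g3 at chr1:138273488-138273747 on the plus strand, Atp6v1a at chr16:44139250-44139509 on the minus strand and Atp6v0d1 at chr8:105566055-105566314 on the minus strand.
Atp6v1b1: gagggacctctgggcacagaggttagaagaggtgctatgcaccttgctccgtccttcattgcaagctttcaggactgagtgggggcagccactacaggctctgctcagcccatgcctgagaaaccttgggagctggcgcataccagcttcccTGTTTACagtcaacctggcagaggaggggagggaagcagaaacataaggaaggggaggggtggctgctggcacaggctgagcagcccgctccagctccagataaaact
Atp6v1g3: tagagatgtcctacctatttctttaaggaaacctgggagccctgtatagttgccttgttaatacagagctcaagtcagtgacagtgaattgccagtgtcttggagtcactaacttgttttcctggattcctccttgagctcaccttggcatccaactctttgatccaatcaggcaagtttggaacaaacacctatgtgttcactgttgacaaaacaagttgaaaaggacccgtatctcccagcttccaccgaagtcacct
Atp6v1a: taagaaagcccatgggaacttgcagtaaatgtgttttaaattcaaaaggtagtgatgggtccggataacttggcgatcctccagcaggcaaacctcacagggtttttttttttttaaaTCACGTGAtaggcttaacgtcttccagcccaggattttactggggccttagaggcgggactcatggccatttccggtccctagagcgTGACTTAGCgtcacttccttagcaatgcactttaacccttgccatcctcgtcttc
Atp6v0d1: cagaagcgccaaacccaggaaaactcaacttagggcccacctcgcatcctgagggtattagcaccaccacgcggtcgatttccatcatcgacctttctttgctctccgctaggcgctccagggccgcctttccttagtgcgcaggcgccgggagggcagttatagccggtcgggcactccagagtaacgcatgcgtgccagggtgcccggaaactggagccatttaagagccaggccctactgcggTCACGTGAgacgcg

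The comparison asked whether the subunits that intercalated cells add to the pump differed between NEKO and control kidneys in the same way as those that every cell uses. Of the 5 intercalated-type transcripts, 4 had mean levels in NEKO kidneys between 50.2% and 64.7% of the control level, while Atp6v0a4 and the 5 ubiquitous transcripts lay between 90.1% and 120.3%. None of the 10 passed the adjusted threshold, where limma called 0.225% of all features in either direction, 0.128% lower and 0.097% higher. At an unadjusted p under 0.05, limma gave 4 of the 5 intercalated-type genes as lower, against 10.6% of all features, and 1 of the 5 ubiquitous genes as higher, against 7.37%. The members and the gene lists below were chosen with earlier results of these data known, so such counts are a description and not a test. The median log2 difference was -0.90 over the intercalated-type subunits and 0.03 over the ubiquitous ones, beside -0.03 over all features tested. The gap of -0.92 between the medians is given as a description, since it was not tested.

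**Figure D1:**
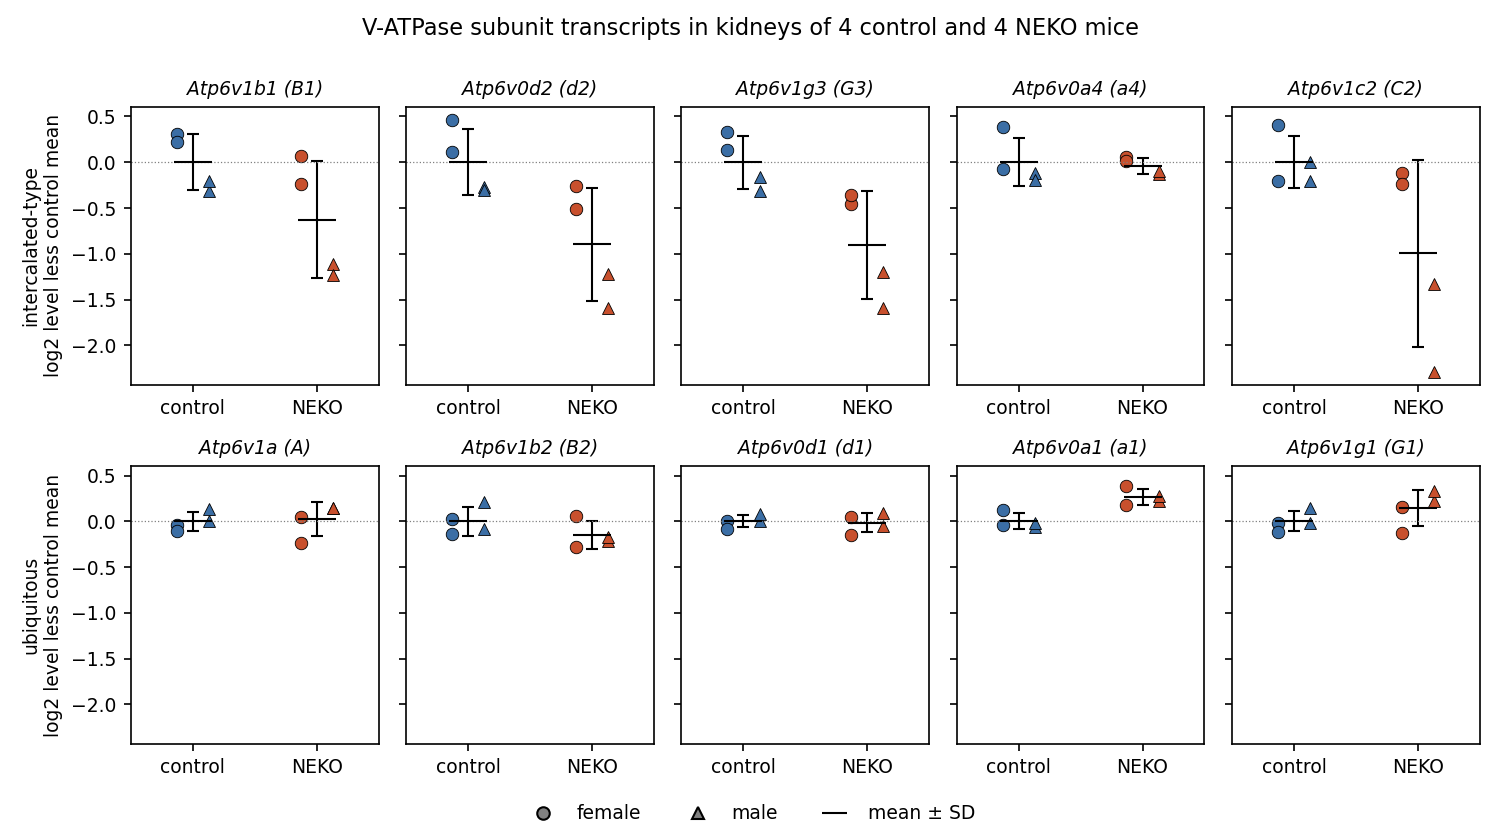
Level of each subunit in each mouse (log2, less the mean of the 4 controls), with the intercalated-type subunits in the upper row and the ubiquitous ones in the lower row. Circles are females, triangles are males, and the bars are the mean and SD of 4 mice; both NEKO males lie lowest for Atp6v1b1, Atp6v0d2, Atp6v1g3 and Atp6v1c2, and the ubiquitous subunits stay within about 0.4 of the control mean.

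In the V1 part, Atp6v1b1 encodes B1, the nucleotide-binding subunit found in intercalated cells and the inner ear. Its level in control replicates 1, 4, 7 and 8 was 0.86, 0.23, 0.34 and 0.77, and in NEKO replicates 2, 3, 5 and 6 it was 0.31, 0.62, -0.56 and -0.68. The control females were higher than the control males, and within each sex both NEKO mice lay below both controls, although the NEKO females overlapped the control males. The log2 difference was -0.63 (SE 0.14, adjusted p = 0.112 from limma), or 64.7% of the control level (95% interval 51.6% to 81.1%). Its ubiquitous counterpart, Atp6v1b2, encodes B2, which takes the same place in the pump of other cells. Atp6v1b2 was at 2.41, 2.60, 2.30 and 2.25 in the controls and at 2.11, 2.45, 2.18 and 2.22 in the NEKO mice. These ranges overlapped, and the difference of -0.15 (SE 0.12, adjusted p = 0.509 from limma) left it at 90.1% of the control level (95% interval 74.6% to 109%).

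Atp6v1g3 encodes G3, the kidney isoform of a subunit of the stalk that holds V1 to V0. It was at 3.45, 2.81, 2.96 and 3.25 in the controls and at 2.66, 2.75, 1.91 and 1.53 in the NEKO mice. Every NEKO mouse lay below every control, as was so for 5.36% of all features, with the NEKO females close under the lowest control. The difference of -0.90 (SE 0.14, adjusted p = 0.0640 from limma) put it at 53.5% of the control level (95% interval 42.3% to 67.7%). A two-sided exact permutation test without sex gave p = 0.0286, the smallest that 4 mice against 4 allow and the value of any gene whose groups do not overlap. By the same exact test p was 0.143 for Atp6v1b1, 0.0857 for Atp6v0d2 and 0.114 for Atp6v1c2, and 0.0286 for Atp6v0a1 in the other direction. A further Atp6v1g3 probe was nowhere well above background. The ubiquitous isoform G1, from Atp6v1g1, was at 6.35, 6.36, 6.52 and 6.26 in the controls and at 6.24, 6.53, 6.60 and 6.71 in the NEKO mice. The groups overlapped, with a difference of 0.15 (SE 0.09, adjusted p = 0.435 from limma), or 111% of the control level (95% interval 95.0% to 129%), and the other Atp6v1g1 probe gave 0.20.

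Atp6v1c2 encodes C2, an isoform of kidney and lung of the subunit that clamps V1 to V0 when the pump assembles. It was at 3.10, 2.50, 2.70 and 2.50 in the controls and at 2.58, 2.46, 1.37 and 0.41 in the NEKO mice. The NEKO females lay within or just under the control range, and the NEKO males lay far below it. Its log2 difference of -0.99 was the largest of the 10 and also the least certain (SE 0.35, adjusted p = 0.216 from limma), at 50.2% of the control level with a 95% interval from 28.2% to 89.4%. Without NEKO replicate 6 the difference was -0.66. The catalytic subunit A, from Atp6v1a, has no kidney isoform and serves every form of the pump. Atp6v1a was at 2.65, 2.84, 2.70 and 2.60 in the controls and at 2.74, 2.46, 2.84 and 2.84 in the NEKO mice. The NEKO mice lay on both sides of the controls, with a difference of 0.03 (SE 0.09, adjusted p = 0.893 from limma), or 102% of the control level (95% interval 88.4% to 117%). Its other probe gave 0.05.

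In the V0 part, Atp6v0d2 encodes d2, an isoform of the collar that joins the stalk to the proton ring, which is also abundant in osteoclasts. It was at -0.66, -1.40, -1.43 and -1.01 in the controls and at -1.63, -1.39, -2.34 and -2.72 in the NEKO mice. Within each sex both NEKO mice lay below both controls, and across the sexes NEKO replicate 3 overlapped the control males. The difference of -0.90 (SE 0.15, adjusted p = 0.0659 from limma) corresponded to 53.8% of the control level (95% interval 42.2% to 68.5%). The ubiquitous isoform d1, from Atp6v0d1, was at 2.93, 2.92, 2.99 and 2.83 in the controls and at 2.77, 2.97, 2.87 and 3.00 in the NEKO mice. The groups lay on the same level, with a difference of -0.01 (SE 0.08, adjusted p = 0.935 from limma) and a 95% interval from 87.1% to 112% of the control level.

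Atp6v0a4 encodes a4, the isoform of the proton-conducting a subunit that is found in intercalated cells and also in the proximal tubule. It was at 4.00, 3.50, 3.42 and 3.54 in the controls and at 3.67, 3.63, 3.49 and 3.53 in the NEKO mice. All NEKO mice lay inside the control range. The difference was -0.04 (SE 0.11, adjusted p = 0.873 from limma), or 97.4% of the control level (95% interval 81.1% to 117%), and the other probe gave 0.04 (SE 0.15). The ubiquitous isoform a1, from Atp6v0a1, was at -0.70, -0.72, -0.67 and -0.52 in the controls and at -0.47, -0.27, -0.43 and -0.38 in the NEKO mice. Every NEKO mouse lay above every control, as was so for 3.89% of all features, by a narrow margin. The difference of 0.27 (SE 0.08, adjusted p = 0.175 from limma) put it at 120.3% of the control level (95% interval 106% to 137%). A much dimmer Atp6v0a1 probe gave -0.03 with overlapping groups, so the probes of this gene disagree.

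The change of each isoform relative to its ubiquitous partner in the same mouse was followed as the log2 difference within the pair, less the mean of that difference in the controls. For G3 against G1 the controls 1, 4, 7 and 8 were at 0.35, -0.30, -0.31 and 0.25, and NEKO replicates 2, 3, 5 and 6 were at -0.33, -0.52, -1.43 and -1.92. This was the pair in which the groups did not overlap. For d2 against d1 the NEKO mice ran from -1.68 to -0.31 and the controls from -0.38 to 0.45, with a NEKO mean of -0.88 ± 0.66 (SD, n = 4). For B1 against B2 the NEKO mean was -0.48 ± 0.58 (SD, n = 4), and for C2 against C1 (Atp6v1c1) it was -1.05 ± 0.99 (SD, n = 4). For a4 against a1 it was -0.31 ± 0.12 (SD, n = 4), and there 1 NEKO mouse lay inside the control range and 3 lay under it. In that pair Atp6v0a4 itself differed by -0.04 and the Atp6v0a1 probe used by 0.27, while their other probes gave 0.04 and -0.03. With the brightest kept probe of each gene, the NEKO mean was below 0 in all 5 pairs, and in 4 the groups overlapped.

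The log2 difference was lower in males than in females for 4 of the 5 intercalated-type subunits, as it was for 9743 of all 19593 features. It was also lower in males for 20 of the 24 other V-ATPase genes, so this direction was not particular to the intercalated-type subunits. The median log2 difference of the 5 intercalated-type subunits was -0.35 in females and -1.12 in males, beside -0.01 and 0.08 for the ubiquitous 5. It was 0.05 and -0.05 for the other V-ATPase genes. Atp6v1c2 differed by -0.28 in females and -1.71 in males, Atp6v1b1 by -0.35 and -0.91, Atp6v1g3 by -0.65 and -1.16, Atp6v0d2 by -0.67 and -1.12, and Atp6v0a4 by -0.13 and 0.05. In the interaction of sex and genotype, Atp6v1c2 had a male effect minus female effect of -1.43 (SE 0.48, unadjusted p = 0.0248, adjusted p = 0.357 from limma). The same term was -0.56 (SE 0.19, unadjusted p = 0.0251, adjusted p = 0.359 from limma) for Atp6v1b1. No subunit passed the adjusted interaction test, which 0.0153% of features passed, and 2 of the 10 were under an unadjusted p of 0.05, against 10.5% of features. Both NEKO mice lay below both controls within each sex for Atp6v1b1, Atp6v0d2 and Atp6v1g3, which held for 10.5% of all features, and above them for Atp6v0a1, which held for 7.06%. Control replicate 1, the female without Cre, was the highest of all 8 mice for each of the 5 intercalated-type genes. NEKO replicate 6 was the lowest for 4 of them, Atp6v0a4 being the exception. The share of these 2 mice in the differences is given by leaving each out. Without control replicate 1 the intercalated-type median was -0.87, and without NEKO replicate 6 it was -0.66.

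**Figure D2:**
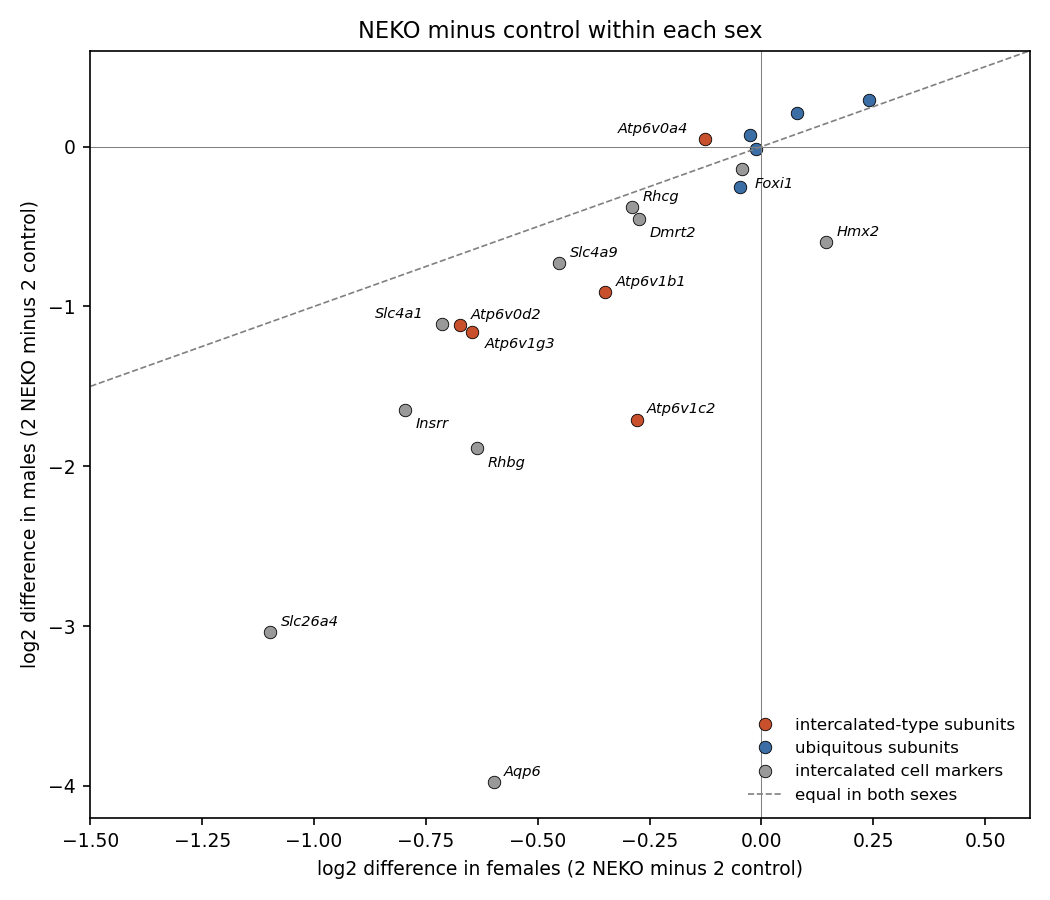
Log2 difference between NEKO and control kidneys in males (vertical) against females (horizontal), each point 1 gene and each value the mean of 2 NEKO less the mean of 2 control mice; the dashed line marks equal differences in both sexes. The 4 intercalated-type subunits other than Atp6v0a4 and the intercalated cell markers lie below the line and the ubiquitous subunits lie around the crossing of the axes.

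The rest of the V-ATPase had small differences. Among 15 further subunits and accessory proteins none was called, 1 was lower at an unadjusted p under 0.05 (10.6% over all features), and the log2 differences ran from -0.26 to 0.24 with a median of 0.03. The 1 was Atp6v1e1, which encodes the E subunit of the stalk. Atp6v1e1 was at 3.67, 3.58, 3.64 and 3.44 in controls 1, 4, 7 and 8 and at 3.35, 3.35, 3.22 and 3.37 in the NEKO mice. Every NEKO mouse lay below every control (5.36% of all features), with a difference of -0.26 (SE 0.08, adjusted p = 0.195 from limma), and its other probe gave -0.17 with overlapping groups. The proton ring genes Atp6v0c and Atp6v0b differed by 0.03 and 0.24, and the accessory proteins Atp6ap1 and Atp6ap2, the latter known as the prorenin receptor, by 0.12 and 0.12. Of the remaining V1 genes, Atp6v1d differed by -0.12, Atp6v1f by -0.11, Atp6v1h by 0.15, and Atp6v1e2 by 0.20 with a wide 95% interval from -0.41 to 0.81. Atp6v1c1, the partner of Atp6v1c2, differed by 0.06 (SE 0.11, adjusted p = 0.796 from limma).

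Tcirg1, which encodes the a3 isoform of osteoclasts and macrophages, was at -0.29, -0.52, -0.33 and -0.28 in the controls and at -0.50, -0.40, -0.11 and 0.17 in NEKO replicates 2, 3, 5 and 6. The NEKO females lay within the control range and the NEKO males above it. Its difference was 0.15 (SE 0.15, adjusted p = 0.613 from limma), and the male effect minus the female effect was 0.62 (SE 0.19, unadjusted p = 0.0174, adjusted p = 0.310 from limma). The macrophage markers beside it, 9 kept of 10, had a median of -0.20 in females and 0.51 in males and 0 calls, with a summed level of 6.28 to 8.77 in controls and 5.57 to 10.4 in NEKO mice on the linear scale. Their part in the level of Tcirg1 was not tested.

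Of 10 assembly factors and regulators 9 were tested, Tldc2 having no named probe. None was called and none had groups apart, and the median was -0.04, in a range from -0.15 for Dmxl1 to 0.16 for Ncoa7. Vma21, Tmem199 and Ccdc115, which help to build V0 in the endoplasmic reticulum, differed by -0.04, -0.07 and 0.11. Dmxl1, Dmxl2, Wdr7 and Rogdi, of the complex that brings V1 back to V0, differed by -0.15, -0.09, -0.01 and -0.12. Rogdi differed by 0.22 in females and -0.47 in males (interaction unadjusted p = 0.0070, adjusted p = 0.216 from limma). Of 27 genes of the lysosome, which the ubiquitous pump acidifies, none was called, 2 were higher and 3 lower at an unadjusted p under 0.05 (7.37% and 10.6% over all features), and the median was -0.01. The 4 largest differences there were 0.54 for the protease gene Ctsd, -0.48 for Grn (progranulin), -0.35 for Galns (a sulfatase) and 0.27 for Scarb2 (a membrane receptor), with adjusted p from 0.133 to 0.43 in limma.

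**Figure D3:**
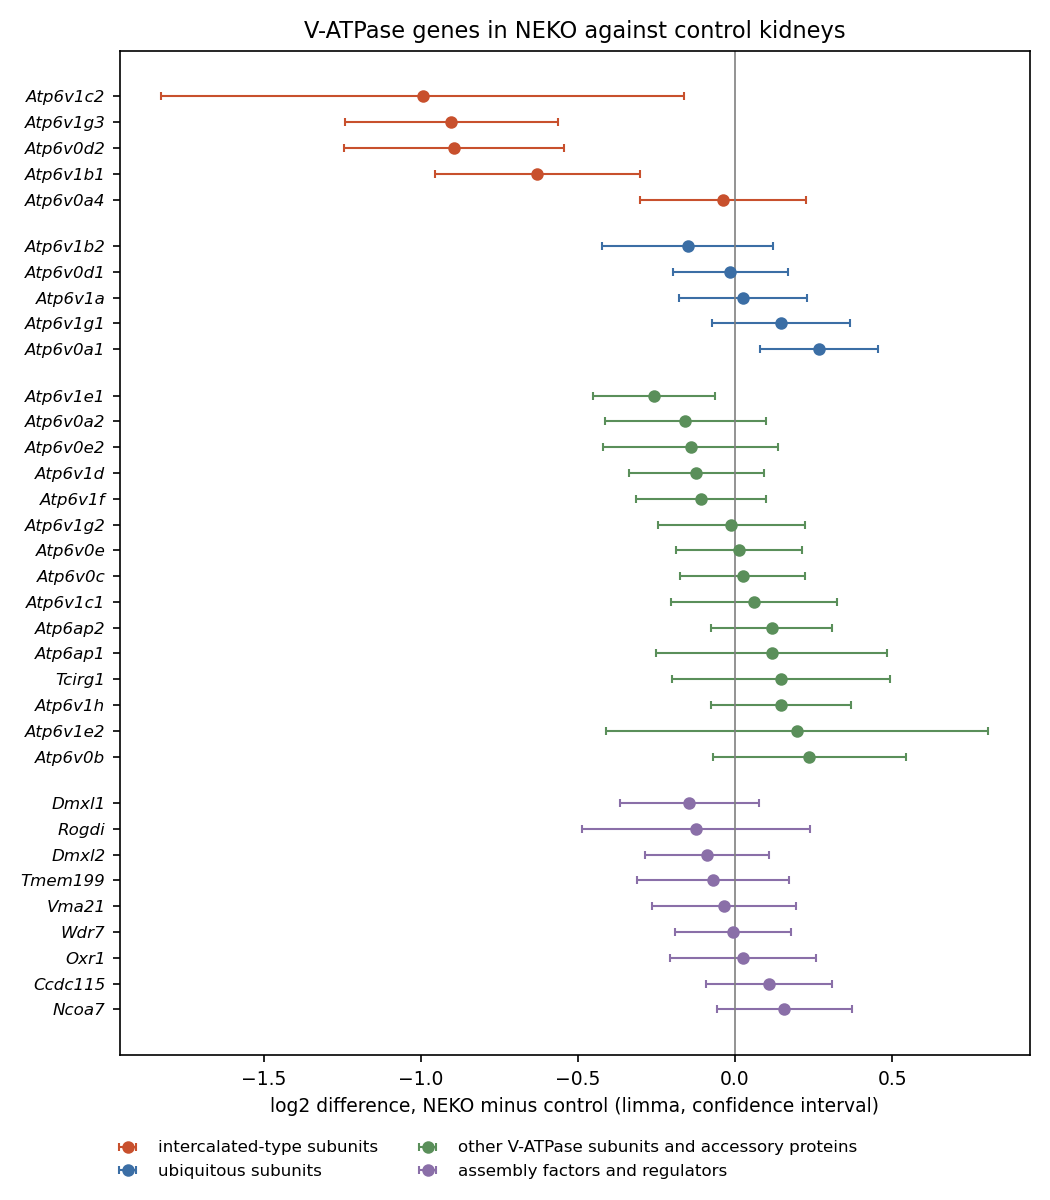
Log2 difference between NEKO and control kidneys for the 10 subunits and 24 other V-ATPase genes, each point the limma estimate with its 95% interval over 4 against 4 mice and the colours giving the class of gene. Intervals of Atp6v1c2, Atp6v1g3, Atp6v0d2 and Atp6v1b1 lie left of 0 by more than those of any other gene drawn; an interval of this kind is not adjusted for the number of genes tested.

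Markers of the intercalated cell itself had lower mean levels in the NEKO kidneys beside these 4 subunits. Of 12 markers, 10 could be tested, since Oxgr1 had no named probe and the Slc26a7 probe did not pass the filter for detection and values. All 10 had negative differences, as had 11010 of all 19593 features, none was called, and 6 were lower at an unadjusted p under 0.05 (10.6% over all features), with a median of -0.75 (-0.53 in females and -0.92 in males). Pendrin (Slc26a4), the chloride and bicarbonate exchanger of type B cells, was at 4.98, 4.62, 4.56 and 4.59 in controls 1, 4, 7 and 8 and at 3.68, 3.69, 1.82 and 1.29 in the NEKO mice. Its groups did not overlap, with a difference of -2.07 (SE 0.39, adjusted p = 0.0814 from limma).

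Insrr, a receptor that senses alkali, differed by -1.22 (SE 0.21, adjusted p = 0.0668 from limma) and Rhbg, an ammonia transporter, by -1.26 (SE 0.26, adjusted p = 0.0992 from limma), both with groups apart, which with Slc26a4 makes 3 of the 10 against 5.36% of all features. Aqp6 (an intracellular channel of type A cells) was at -0.21 and -0.03 in the NEKO females and at -3.12 and -5.33 in the NEKO males, against -0.36 to 0.51 in the controls. For Slc4a1, the AE1 exchanger of type A cells, the NEKO mice ran from -0.86 in replicate 6 to 2.34 in replicate 5, around a control range of 1.73 to 2.17, and its difference was -0.91 (SE 0.61, adjusted p = 0.457 from limma). Replicate 6 lay far below the other NEKO mice there. Slc4a9 (the AE4 exchanger) differed by -0.59, Dmrt2 by -0.36, Rhcg, another ammonia transporter, by -0.33 and Hmx2 by -0.23.

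Foxi1, the transcription factor that intercalated cells need and that is known to drive B1 and a4, was at -1.37, -2.03, -1.93 and -1.89 in the controls and at -1.98, -1.36, -1.97 and -2.27 in the NEKO mice. The groups overlapped fully, with a difference of -0.09 (SE 0.17, adjusted p = 0.80 from limma), or 93.9% of the control level (95% interval 70.5% to 125%). Summed over the 10 markers on the linear scale, where bright probes weigh most, the level was 53.5 to 76.3 in the controls and 16.2 to 47.3 in the NEKO mice. Slc26a4 was the brightest of the 10 in every control, so this sum mostly follows that gene. Rhcg, the next brightest in the controls, had overlapping groups. Whether the sums stay apart without Slc26a4 was not tested. Of the 10, 9 were well above background on all 8 arrays and Aqp6 on 7. The part of these markers in the levels of the subunits was not tested.

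Other cell types gave the scale of these differences. Principal cells, the neighbours of intercalated cells in the collecting duct, had a median of -0.22 over 9 markers, in a range from -0.92 to 0.26. Of these, Hsd11b2, the enzyme that inactivates corticosterone, differed by -0.92 (-0.38 in females and -1.46 in males, adjusted p = 0.150 from limma). Scnn1b, a subunit of the sodium channel ENaC, differed by -0.76 (SE 0.13, adjusted p = 0.0668 from limma). Aqp4 differed by -0.79 (SE 0.62, with 0.45 in females and -2.03 in males). These sizes were within the range of the 4 lower pump subunits. The rest of the list was closer to the control level. Fxyd4 differed by -0.35, Aqp2 by -0.22, Scnn1g by -0.20 and Aqp3 by -0.10, and Gata3 and Avpr2 went the other way, by 0.23 and 0.26. The thick ascending limb had a median of -0.19 over 4 markers. The distal convoluted tubule had a median of -0.69 over 4 markers, of which Pvalb differed by -1.12, Trpm6 by -0.81, Slc12a3, the sodium chloride cotransporter, by -0.57 and Calb1, a calcium-binding protein, by 0.01. The proximal tubule had a median of 0.02 over 7 markers, with a summed level of 592 to 798 in controls and 663 to 750 in NEKO mice. No marker of these lists was called. The urothelium, which lines the renal pelvis, had a median of 0.06 in females and 2.52 in males over 5 markers. In females these 5 ran from -1.22 for Upk1a to 1.04 for Krt5, with 2 of them lower, so that median covers differences in both directions. The podocyte and endothelial lists had medians of 0.23 and 0.14 over 3 markers each.

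Because d2 and a3 are also pump subunits of osteoclasts and of some macrophages, 3 genes of such cells were read beside them. Trem2 was at -3.41, -4.39, -3.39 and -3.17 in the controls and at -2.48, -1.74, 0.32 and 0.63 in the NEKO mice, Acp5 differed by 0.41 and Ctsk by 0.47, and Gpnmb was not kept. Their summed level was 4.65 to 6.64 in controls and 5.59 to 10.6 in NEKO mice, most of it from Acp5. In Trem2 every NEKO mouse lay above every control, as was so for 3.89% of all features. Its difference of 2.77 (SE 0.65, adjusted p = 0.125 from limma) was not called, and was 1.18 in females and 4.37 in males. The part of such cells in the levels of Atp6v0d2 and Tcirg1 was not tested.

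**Figure D4:**
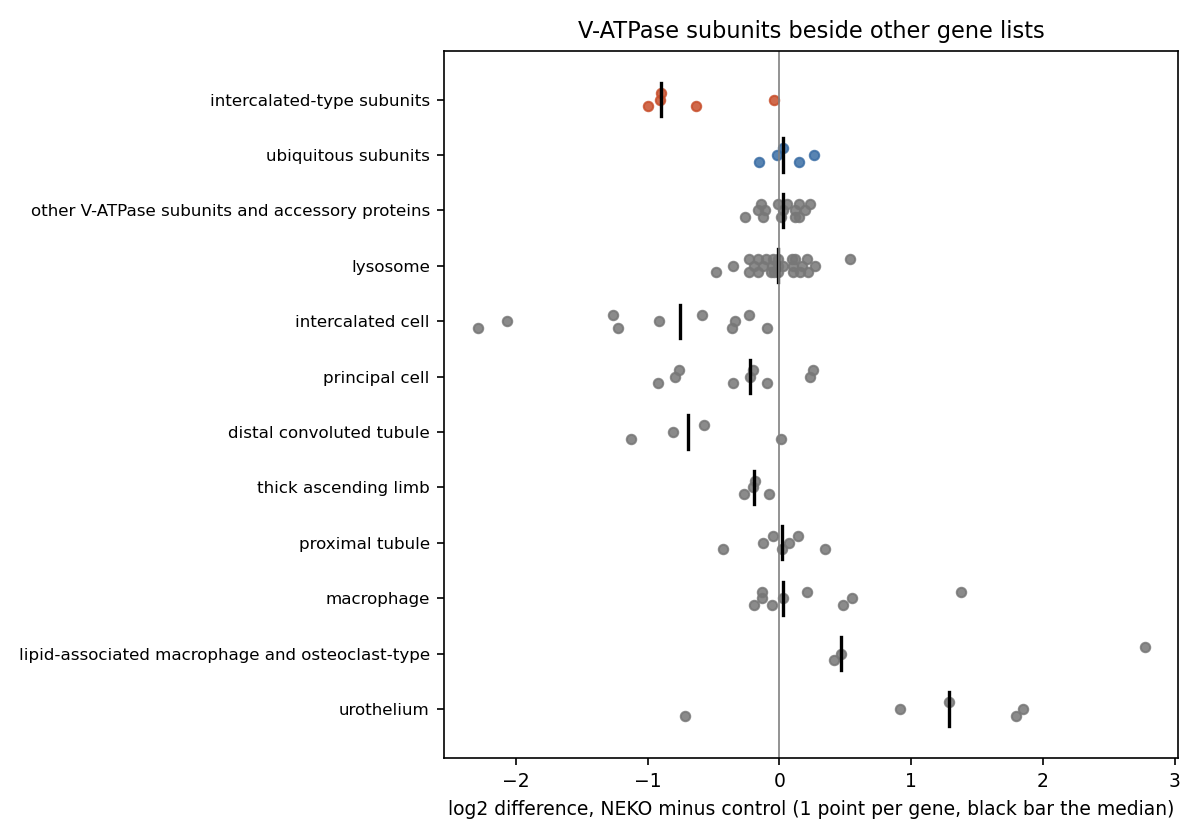
Log2 difference between NEKO and control kidneys, 1 point per gene and a black bar at the median of each list. The intercalated-type subunits (median -0.90) lie with the intercalated cell markers (-0.75) and the distal convoluted tubule (-0.69), and the ubiquitous subunits (0.03) lie with the other V-ATPase subunits (0.03), the lysosome (-0.01) and the proximal tubule (0.02).

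The genes whose pattern over the 8 arrays was most like that of Atp6v1b1 were found by the root mean square of the difference between their levels, each less its own mean, among 13518 genes. They were Cytip (0.08), Ung (0.10), Sybu (0.11), Sv2a (0.12) and Ak7 (0.12), all on the log2 scale, and all share the same 8 arrays and the same lower level in NEKO males. Atp6v1g3 ranked 26 and Atp6v0d2 28 in this order, with 0.17 each. This measure takes in the size of a change as well as its direction, so a gene that falls much further than Atp6v1b1 also ranks low. The log2 differences of Slc26a4 and Aqp6 were -2.07 and -2.29, against -0.63 for Atp6v1b1. The 10 intercalated cell markers were spread over the whole order. Dmrt2 ranked 67, Slc4a9 104, Rhcg 191, Insrr 394, Rhbg 631, Foxi1 733 and Hmx2 1121, while Slc4a1 ranked 12109, Slc26a4 12275 and Aqp6 13366, lower than any of the ubiquitous subunits. Atp6v1c2 ranked 862 and Atp6v0a4 2212, and the ubiquitous subunits ranked between 3046 (Atp6v1b2) and 10257 (Atp6v1g1).

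The calls on single subunits depended on the processing. Atp6v1g3 passed the adjusted threshold under normexp background correction (which also started from the median spot signal and added an offset of 50), under eBayes with a trend and robust, with array weights and when the effects in the sexes were fitted apart and averaged, with an adjusted p from 0.020 to 0.44 in limma and the methods' comparison over all alternatives. Atp6v0d2 passed under 3 of these and Atp6v1b1 under 1, the averaging over the sexes. That setting, chosen after seeing the data, called 3 of the 5 intercalated-type subunits lower and no ubiquitous one, beside 1.37% of all features lower and 1.25% higher. Leaving out any 1 mouse called no subunit, and the sign of the 4 lower subunits was the same in all 20 alternatives. Several of the 20, such as no sex term or eBayes with trend and robust, leave the estimate itself unchanged in these balanced groups, so their sign could not differ. With 1 mouse left out, Atp6v1b1 ran from -0.75 to -0.55 and Atp6v0d2 from -1.01 to -0.78. Atp6v1g3 ran from -0.99 to -0.77 and Atp6v1c2 from -1.26 to -0.66.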

How the data were processed

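Kidney RNA of 4 NEKO and 4 control mice was measured on 8 Agilent 1-colour arrays, 1 per mouse, all grouped from the labels. The authors deposited Feature Extraction output with an intensity per spot, in which the processed signal is background-subtracted but not normalized between arrays. A second file the authors deposited holds log2 values centred per probe, and as differences between arrays all 287553 of its values compared were within 0.01 of those recomputed.

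Outlier spots (73 to 172 of 43379 per array) were left out and spots of 1 probe averaged. From log2 of the processed signal the 75th percentile of each array was subtracted. A probe was kept with detection well above background on 4 or more of the 8 arrays and values on 6 or more, and the brightest kept probe stood for its gene. RefSeq accessions (GRCm38.p6) named 26690 of 41174 probes. Apart from the 4 promoter windows printed above, gene coordinates are left out because the arrays were annotated on mm9. In all, 13570 named genes and 6023 unnamed transcripts were fitted in limma 3.58.1 under R 4.3.3 (lmFit, eBayes, genotype and sex) with Benjamini-Hochberg adjustment, and the procedure was tested on simulated data. Single subunits were compared by exact two-sided permutation. The number of arrays limits the precision.

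The members and gene lists were chosen with earlier results of these data known. The genes named are the 10 subunits, the other V-ATPase and intercalated cell genes, the 4 lysosomal genes with the largest difference, the 5 genes most like Atp6v1b1, and Keap1. Values for genes of other cell types are named outside that rule, and were chosen after their values were seen. Alternatives were normexp (offset 50, from median spot and median local background signals), quantile normalization, scaling to the median, other filters, the mean of probes, no sex term, eBayes with trend and robust, array weights, the unequal-variance comparison named in the methods, the deposited matrix and leaving out each mouse. Averaging over the sexes and each sex alone were chosen after seeing the data.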

Additional observations from a re-analysis of the deposited data

Results flagged for a closer look

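In 4 of the 88 groups of 4 mice examined for the V-ATPase and intercalated cell genes, 1 mouse lay far from the other 3, measured as its distance from the closest other mouse over the spread of all 4. About 1 group in 20 shows this by chance. Atp6v1e1 was low in NEKO replicate 5 (ratio 0.853), at 3.22 against 3.35 to 3.37. The other 3 were all control replicate 1, the female without Cre. Tmem199 was low there (0.842), at 0.23 against 0.47 to 0.52, Oxr1 was high (0.953), at -0.39 against -0.73 to -0.72, and Slc26a4 was high (0.853), at 4.98 against 4.56 to 4.62.

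For Atp6v0a4 the difference between genotypes ran in opposite directions in the sexes, with both NEKO females below the mean of the control females and the males slightly above, and the male effect minus the female effect was 0.17 (SE 0.23, adjusted p = 0.857 from limma). It did not pass the interaction test. The NEKO females, at 3.67 and 3.63, lay between control replicate 8 (3.54) and control replicate 1 (4.00). Without control replicate 1 the difference over both sexes was 0.07.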

How the results depend on the processing

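Against 0 intercalated-type subunits called, the count was 2 under normexp background correction, 1 under eBayes with trend and robust, 2 with array weights, 3 when averaged over the sexes and 4 at an unadjusted p under 0.05. For the intercalated cell markers, also 0, it was 2 under normexp, 1 with array weights, 3 when averaged over the sexes and 6 at an unadjusted p. The ubiquitous subunits and the other V-ATPase genes each went from 0 to 1 at an unadjusted p. Over all features the calls went from 19 higher and 25 lower to 69 and 113 under normexp, 48 and 98 with array weights, 40 and 53 with trend and robust, 245 and 268 when averaged over the sexes (1.37% lower), and 0 and 1 under the methods' comparison. The causes were not tested.

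The intercalated-type median was -0.35 and the gap between the medians -0.34 in females alone, against -1.12 and -1.19 in males alone. With 1 mouse left out the intercalated-type median ran from -0.99 to -0.66, the ubiquitous one from 0.00098 to 0.09 and the gap from -1.06 to -0.67. The intercalated-type median and the gap were smallest in size without NEKO replicate 6, and the ubiquitous median was nearest 0 without control replicate 7. Small differences near 0 changed sign when 1 mouse was left out. Atp6v0a4 ran from -0.114 to 0.0710, Atp6v0d1 from -0.0556 to 0.0248 and Atp6v1a from -0.0206 to 0.0913. The interaction term of Atp6v0d1 went from -0.0058 to 0.0315 under normexp. Atp6v1b2 ran from -0.24 to -0.07 and was never called.

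No paired analysis was possible because the replicate numbers run over both groups and none is shared. With 4 arrays a group, a difference such as that of Atp6v1c2 has an interval too wide to separate a small from a large one.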
